A study of Mus musculus with 18 samples.

Results

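Trophoblast lineage genes are described here by their DNA methylation in mouse embryonic stem cells (ESCs): Elf5, Cdx2, Eomes, Tfap2c, Hand1, Ascl2, Tpbpa and Prl3d1. These 8 genes were picked by name from the 22350 protein-coding genes of the GENCODE vM1 annotation (genome build NCBIM37), where Tfap2c carries its older symbol Tcfap2c. Each gene was read over 2 windows, the start (1 kb either side of the annotated gene start) and the gene body plus 5 kb upstream.

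Whole-genome bisulfite sequencing (WGBS-seq) was done on 18 libraries of ESCs, 9 labelled wild type (control) and 9 labelled Dnmt1 KO, sampled on days 1, 3, 6, 9 and 11. Each genotype had 2 libraries at every day but day 6, which had 1. The labels gave E14 as background strain for every library, whereas the study's methods describe conditional C57BL/6 ESCs carrying loxP-flanked Dnmt1 alleles, grown in serum with LIF, in which tamoxifen switches on Cre. A difference between Dnmt1 KO and control can therefore include a difference between lines or an effect of tamoxifen, and these cannot be told apart from the loss of Dnmt1. Neither labels nor methods say whether replicate libraries came from separate cultures, so p-values rest only on the spread between these libraries, which may be technical. At starts that spread was taken mostly over all genes together and not from the single gene.

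The trophoblast is the lineage of the early embryo that builds the placenta, and ESCs derive from the other lineage, the inner cell mass. Cdx2, Eomes, Tfap2c and Elf5 encode transcription factors of trophoblast stem cells, Hand1 and Ascl2 encode factors of the differentiating giant cells and spongiotrophoblast, and Tpbpa and Prl3d1 mark those mature cells. The promoter of Elf5 is known as a gatekeeper, methylated in ESCs and unmethylated in trophoblast stem cells. DNMT1 copies methylation onto the new DNA strand at each replication, so cells without it lose methylation as they divide.

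Each library held between 7190722 and 11158414 methylation calls (1 call is 1 read over 1 cytosine of a CpG), at 1.2 to 1.25 calls per listed cytosine, so single CpGs could not be compared and calls were summed over windows. The level is the percentage of calls that were methylated, and intervals in brackets are exact (Clopper-Pearson) 95% intervals that cover counting error only. Autosomal levels were 71.4% to 79.0% in the control libraries, 69.9% and 70.2% in Dnmt1 KO at day 1 and 24.2% to 34.6% in Dnmt1 KO at days 3 to 11. Over exons 4 and 5 of Dnmt1, the stretch that the usual floxed allele removes, each control library held 2 to 18 calls, the day 1 Dnmt1 KO libraries 0 and 2, and all 7 later Dnmt1 KO libraries 0. Starts of the pluripotency genes Pou5f1, Nanog and Zfp42 were at 2.33% (172 calls), 17.4% (184 calls) and 8.75% (263 calls) in control, low as in pluripotent cells; methylation does not show expression.

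The starts differed in how many CpGs they hold within 1 kb either side. The lines below give 250 bases directly upstream of a start, 5′ to 3′ on the gene's strand, read from NCBIM37, with every CpG in capitals. They show the methylated gatekeeper Elf5 at its annotated gene start (chr2:103251595-103251844, 2 CpGs) and at the internal start of the transcripts Elf5-001 and Elf5-202 (chr2:103263969-103264218, 8 CpGs), the start of Tpbpa (chr13:61043297-61043546, minus strand, 2 CpGs), the start of Hand1, of intermediate methylation (chr11:57646321-57646570, minus strand, 11 CpGs) and the start of Cdx2, of low methylation (chr5:148118847-148119096, minus strand, 11 CpGs). Hand1 and Cdx2 held the same number of CpGs in the stretches shown and differed in the wider window, with 66 against 118.
Elf5, gene start: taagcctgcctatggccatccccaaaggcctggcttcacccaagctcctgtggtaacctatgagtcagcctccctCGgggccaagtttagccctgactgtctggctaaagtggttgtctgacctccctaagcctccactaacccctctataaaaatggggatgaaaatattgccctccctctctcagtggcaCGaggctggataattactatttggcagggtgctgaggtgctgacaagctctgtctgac
Elf5, internal start: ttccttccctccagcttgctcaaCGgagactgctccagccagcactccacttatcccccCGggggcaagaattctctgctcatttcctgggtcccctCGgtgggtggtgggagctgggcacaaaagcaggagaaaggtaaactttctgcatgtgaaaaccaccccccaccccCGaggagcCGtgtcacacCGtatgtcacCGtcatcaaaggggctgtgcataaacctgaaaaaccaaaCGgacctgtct
Tpbpa, gene start: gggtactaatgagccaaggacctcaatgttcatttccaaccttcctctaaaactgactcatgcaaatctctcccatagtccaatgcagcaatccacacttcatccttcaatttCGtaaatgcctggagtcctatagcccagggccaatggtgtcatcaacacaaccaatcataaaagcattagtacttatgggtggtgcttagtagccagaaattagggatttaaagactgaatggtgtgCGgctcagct
Hand1, gene start: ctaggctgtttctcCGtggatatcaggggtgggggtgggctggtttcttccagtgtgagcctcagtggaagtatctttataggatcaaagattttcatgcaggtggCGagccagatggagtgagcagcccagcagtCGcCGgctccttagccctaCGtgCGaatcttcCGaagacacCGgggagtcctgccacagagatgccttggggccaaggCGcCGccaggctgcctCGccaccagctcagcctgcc
Cdx2, gene start: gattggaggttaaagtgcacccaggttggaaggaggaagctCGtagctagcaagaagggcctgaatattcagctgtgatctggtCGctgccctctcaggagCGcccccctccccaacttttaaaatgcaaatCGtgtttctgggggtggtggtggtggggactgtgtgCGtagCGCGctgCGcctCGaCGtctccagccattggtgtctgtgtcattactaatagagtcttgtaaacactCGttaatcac
Over these stretches, control calls were methylated in 6 of 8 at the Elf5 gene start, 28 of 42 at its internal start, 6 of 7 at Tpbpa, 16 of 42 at Hand1 and 2 of 70 at Cdx2. In Dnmt1 KO at days 3 to 11 the same stretches had 1 of 3, 3 of 15, 0 of 2, 1 of 13 and 0 of 40 methylated calls.

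In control ESCs the 8 starts fell into 3 kinds. The starts of Elf5, Tpbpa and Prl3d1 were methylated at 88.5% (79.2% to 94.6%, 78 calls), 88.4% (74.9% to 96.1%, 43 calls) and 88.9% (75.9% to 96.3%, 45 calls), above 95.1%, 94.9% and 95.7% of all gene starts. Hand1 was intermediate at 39.7% (32.9% to 46.8%, 204 calls). Ascl2, Cdx2, Tfap2c and Eomes were low, at 5.87% (426 calls), 4.83% (331 calls), 1.59% (440 calls) and 0.804% (373 calls). In this order, neighbours within the methylated and within the low group had overlapping intervals, whereas Hand1 overlapped with neither neighbour.

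The 3 kinds of start also differed in the number of CpGs in the window, in the direction seen over all genes. Tpbpa, Prl3d1 and Elf5 held 11, 12 and 22 CpGs within 1 kb of the start, Hand1 held 66, and Ascl2, Cdx2, Eomes and Tfap2c held 114, 118, 127 and 129. Of 20634 gene starts with at least 20 calls in control and in Dnmt1 KO at days 3 to 11, the 3290 with under 20 CpGs had a median control level of 81.1%, the 3728 with 20 to under 40 CpGs 78.4%, the 5339 with 40 to under 80 CpGs 16.1% and the 8277 with 80 or more 5.04%. A level of 50% or more was reached by 82.8% of starts with 20 to under 40 CpGs, the class of the Elf5 gene start, so a methylated start with so few CpGs was the common case. The internal Elf5 start shown above held 45 CpGs in its window and was at 71.2% in control (153 calls). Among gene starts with 40 to under 80 CpGs only 13.3% reached 50%, and the place of the internal start among them was not tested. Which Elf5 start is the gatekeeper promoter was not tested either, so the common case holds for the annotated gene start only. Hand1 lay above the upper quartile of its class, 31.6%. The plot of control level against CpG number shows the members among all starts.

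**Figure D1:**
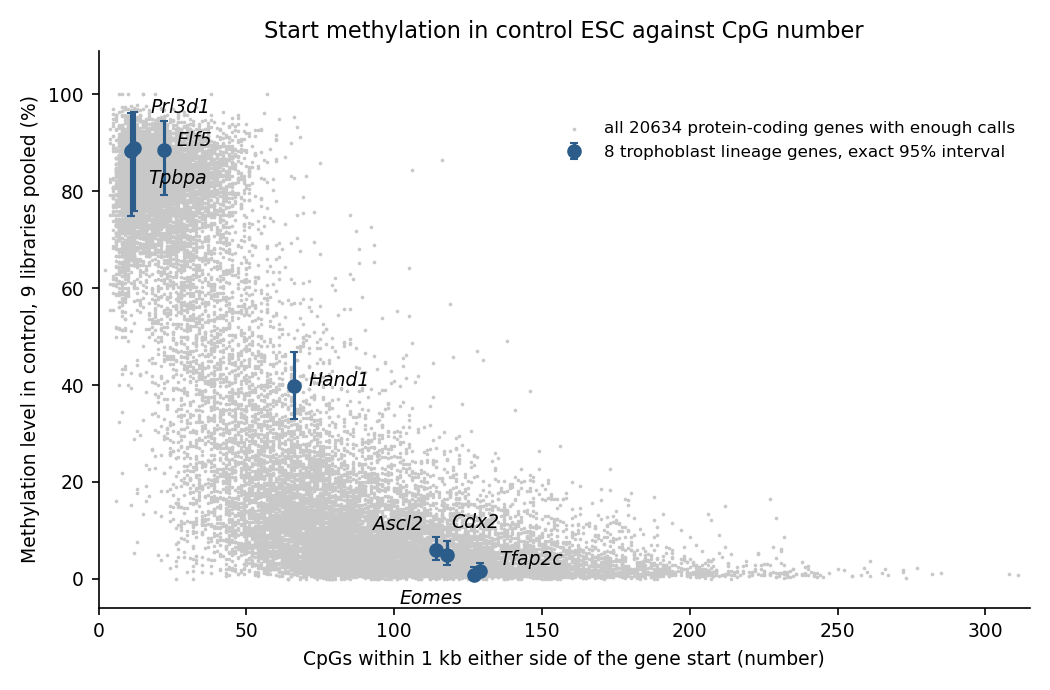
Methylation level (%) of gene starts in the 9 pooled control libraries against the number of CpGs within 1 kb either side, for 20634 protein-coding genes with at least 20 calls in control and in Dnmt1 KO at days 3 to 11 (grey) and the 8 trophoblast lineage genes (blue, with exact 95% intervals). Elf5, Tpbpa and Prl3d1 sit among the CpG-poor methylated starts, Hand1 between the groups at 39.7%, and Ascl2, Cdx2, Tfap2c and Eomes at or under 5.87%.

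Upon Dnmt1 KO the methylated starts lost most of their methylation, and 3 of 8 members passed the test over days 3 to 11: Elf5, Tpbpa and Prl3d1. The other 5 did not pass, and 4 of them were at 5.87% or less in control and so had little to lose. Over all gene starts tested, 54.4% were called lower and 0.0147% higher, so the share among the members was below that background. The median difference was -9.54 points over the 8 members and -12.6 points over all 20423 starts tested. Differences are in percentage points, weighted over days (Mantel-Haenszel), and were tested with a stratified score test scaled by the spread between replicate libraries and adjusted by Benjamini-Hochberg over all genes.

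Elf5 (chromosome 2, 103251845 to 103291146, plus strand) encodes an ETS factor that keeps trophoblast stem cells in their state. Its gene start had 64.3% as the lowest, 100% as the median and 100% as the highest level over the 9 control libraries, with 5 to 14 calls in each. At day 1 the Dnmt1 KO libraries had 7 of 8 and 12 of 12 calls methylated, within the control range. The 7 Dnmt1 KO libraries of days 3 to 11 ranged from 0% over a median of 16.7% to 50%, with 1 to 12 calls each, and lay below every control library. How many of all starts were separated in this way was not counted, here or for the genes below. Pooled, the start was at 25% (13.6% to 39.6%, 48 calls), a difference of -67.5 ± 11.5 points (SE, adjusted p = 0.000105).

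The annotation gives Elf5 further starts inside the gene, and these were methylated too. The internal start 12374 bp downstream, shown above, lies in a window of 45 CpGs and was at 71.2% (63.4% to 78.3%, 153 calls) in control, 65.1% (52.0% to 76.7%, 63 calls) in Dnmt1 KO at day 1 and 30.5% (21.9% to 40.2%, 105 calls) at days 3 to 11. Its control interval lay below that of the gene start, and this difference was not tested. The starts of Elf5-004, Elf5-003 and Elf5-005 were at 68.8%, 80.7% and 77.6% in control and at 27.3%, 26.8% and 41.9% in Dnmt1 KO at days 3 to 11. So every annotated start of Elf5 was at 68.8% or more in control, beside the alternative starts of Eomes and Hand1, at 1.03% and 28.9%, and of Tfap2c, at 1.84% and 18.5%. These Elf5 levels are not separate promoter readings, since the window of Elf5-004 overlaps that of the internal start. Elf5-003 and Elf5-005 are not annotated as protein-coding and start 35191 and 37050 bp inside the gene.

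Tpbpa (chromosome 13, 61040053 to 61043296, minus strand) encodes a secreted protein used as the marker of spongiotrophoblast. Its start had between 1 and 12 calls per control library, with a lowest level of 80% and a median and highest of 100%. In Dnmt1 KO it had 3 of 8 and 5 of 6 methylated calls at day 1, and at days 3 to 11 a lowest and median level of 0% and a highest of 33.3%. The pooled level at days 3 to 11 was 7.14% (0.877% to 23.5%, 28 calls), and the difference was -84.1 ± 14.9 points (adjusted p = 0.000520). Among all starts tested, 0.176% had a difference this large or larger in the same direction, beside 3.99% for Elf5 and 13.2% for Prl3d1. This ranking does not weigh the depth of a start, and with 28 and 29 calls at Tpbpa its rank is uncertain.

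Prl3d1 (chromosome 13, 27186081 to 27192124, plus strand) encodes placental lactogen I, a hormone of giant cells. Control libraries ranged from 71.4% to 100% with a median of 100%, on 1 to 8 calls each. At day 1 the Dnmt1 KO libraries had 5 of 9 and 3 of 4 methylated calls, and control had only 5 calls, too few for a test, and the later Dnmt1 KO libraries ranged from 0% over a median of 33.3% to 50%, below every control library. The difference over days 3 to 11 was -55.8 ± 12.7 points (adjusted p = 0.00181). Prl3d1 and Tpbpa have close copies in the genome, and how reads were shared between copies was not tested.

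Hand1 (chromosome 11, 57642207 to 57646320, minus strand) encodes a bHLH factor needed for giant cells. Its start ranged from 28.6% over 42.1% to 61.9% in the control libraries of days 3 to 11 and from 0% over 23.4% to 46.2% in the 6 Dnmt1 KO libraries with calls there, so the groups overlapped. The pooled levels were 40.5% (163 calls) and 26.4% (125 calls), and the difference of -13.7 ± 8.54 points did not pass (adjusted p = 0.176). With 500 bp either side of the start in place of 1 kb it was -36.9 points and passed (adjusted p = 0.0355). In the kb before the start, control of all days and Dnmt1 KO at days 3 to 11 were at 41.7% and 33.3%. In the kb after it they were at 38.0% and 10.5%. The start of Hand1-001, 671 bp downstream, was at 28.9% (294 calls) and 12.0% (92 calls). The bins and this start were not tested singly.

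Ascl2 (chromosome 7, 150152727 to 150155169, minus strand) encodes the bHLH factor of spongiotrophoblast precursors and is expressed from the maternal allele. Its start was at 6.47% (278 calls) in control and 1.49% (201 calls) in Dnmt1 KO at days 3 to 11, a difference of -5.18 ± 4.18 points (adjusted p = 0.129) that turned to 0.525 points with 500 bp either side. Cdx2 (chromosome 5, 148112381 to 148118846, minus strand) encodes the homeobox factor that sets up trophectoderm, and its start went from 4.96% (282 calls) to 1.06% (188 calls), a difference of -5.33 ± 3.44 points (adjusted p = 0.0970). Without replicate 2 of control day 3 the Cdx2 difference was -7.06 points and passed (adjusted p = 0.0497). Both starts were therefore low in either genotype, and a change in the few percent present was not shown.

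Tfap2c (chromosome 2, 172375093 to 172384122, plus strand), which encodes AP-2 gamma, had 1.42% (281 calls) and 0.465% (215 calls), a difference of -1.16 ± 2.21 points (adjusted p = 0.475). Eomes (chromosome 9, 118387330 to 118395250, plus strand), a T-box factor gene, had 0.730% (274 calls) and 0.803% (249 calls), a difference of 0.200 ± 1.96 points (adjusted p = 0.890). Its sign turned without either day 6 library, without replicate 1 of control day 11 and without replicate 1 of Dnmt1 KO day 11, with values from -0.196 to 0.547 points over the libraries left out in turn. No library of either genotype exceeded 3.33% at Eomes or 3.03% at Tfap2c at days 3 to 11. With control levels this low, a loss within 1 kb of these gene starts was not detectable at this depth. With every annotated transcript start joined, Tfap2c was called lower, at -4.60 points (adjusted p = 0.0402). The joined window takes in Tcfap2c-005, not annotated as protein-coding, 2523 bp inside the gene. Its start was at 18.5% in control of all days and 4.09% in Dnmt1 KO at days 3 to 11. The other Tfap2c starts were at 1.59% and 1.84% in control and 0.465% and 0.372% in Dnmt1 KO, and the part of each in the call was not tested.

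At day 1 no start differed between the genotypes by the test: 0 of the 7 members with at least 10 calls per genotype were called, 0 had an unadjusted p under 0.05, and limma on percentages per library also called 0. Over all starts 0.094% were called lower and 0.00553% higher at day 1, 17 genes and 1 gene, which became 28 to 34 genes in either direction without any 1 of the 4 libraries. Elf5 was at 77.3% (22 calls) in control and 95% (20 calls) in Dnmt1 KO, a difference of 17.7 ± 16.3 points (adjusted p = 0.968). Tpbpa was at 85.7% and 57.1% on 14 calls each, -28.6 ± 24.6 points (adjusted p = 0.968), and the differences of the other 5 lay between -6.35 and 2.24 points. Leaving out 1 of the 4 libraries turned the sign for Hand1 (up to 30.1 points, without replicate 1 of Dnmt1 KO), Eomes (-1.01, without the same library), Cdx2 (-2.78, without replicate 1 of control) and Ascl2 (-0.563, without replicate 2 of Dnmt1 KO).

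**Figure D2:**
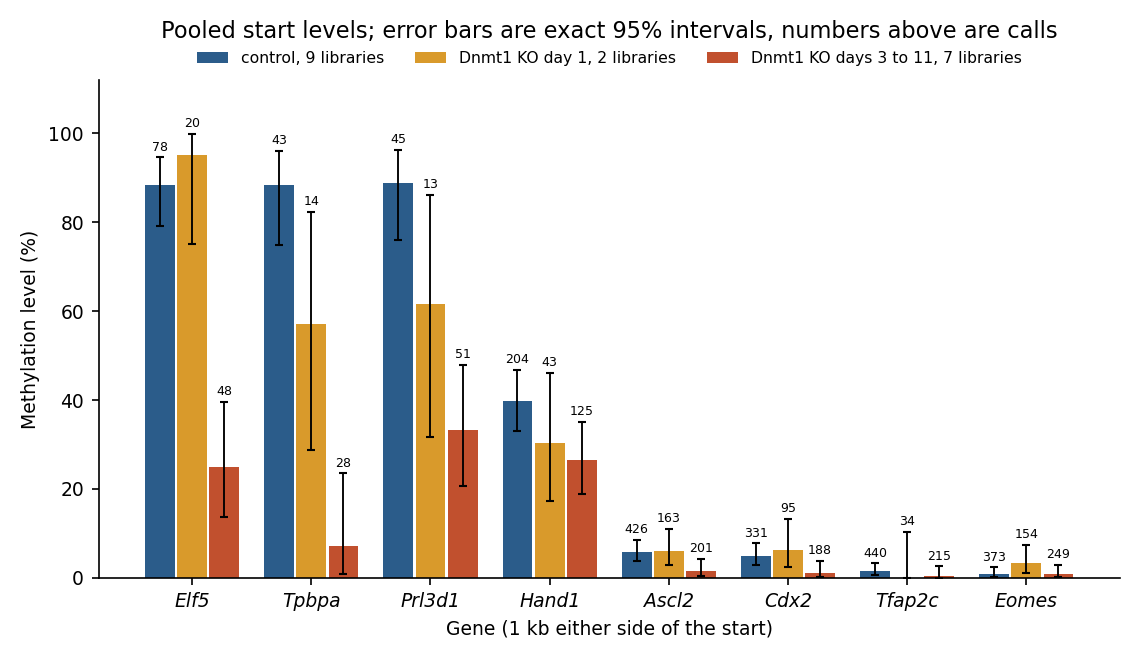
Pooled methylation level (%) of the start of each gene in control (9 libraries), Dnmt1 KO at day 1 (2 libraries) and Dnmt1 KO at days 3 to 11 (7 libraries), with exact 95% intervals and the number of calls above each bar. Elf5, Tpbpa and Prl3d1 fall from 88.4% to 88.9% in control to 25%, 7.14% and 33.3%, while the 4 low starts stay under 10%.

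The windows beyond the starts carried methylation in every member. In 1 kb bins, Elf5 was between 75% and 94.9% in control over all 10 bins within 5 kb of its start, with no dip at the start itself, and between 13.04% and 45.8% in Dnmt1 KO at days 3 to 11. Cdx2 showed a valley, with 75% (52 calls) 1 to 2 kb upstream, 8.89% (135 calls) in the kb before the start, 2.04%, 1.94% and 0.714% over the next 3 bins and 47.2% (53 calls) beyond. Eomes had 92.7% (55 calls) 3 to 4 kb upstream, 1.06% and 0.546% on either side of its start and 73.9% (69 calls) 3 to 4 kb downstream.

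Tfap2c was low upstream as well, at 19.7% or less in each of the 5 upstream bins, and rose to 92.6% (95 calls) in the last downstream bin. Ascl2 went from 78.8% (33 calls) 1 to 2 kb upstream to 19.2% (125 calls) before and 0.332% (301 calls) after its start. Hand1 had no valley at its start: it was at 79.2% (48 calls) 2 to 3 kb upstream, 41.7% and 38.0% on either side of the start and 11.19% (134 calls) in the last downstream bin, around and past its gene end. In Dnmt1 KO the flanks of the valleys were lower, for example 24.2% (33 calls) for Cdx2 and 25% (16 calls) for Ascl2 1 to 2 kb upstream, so the valleys were shallow. The plot of bins around the starts gives these profiles.

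**Figure D3:**
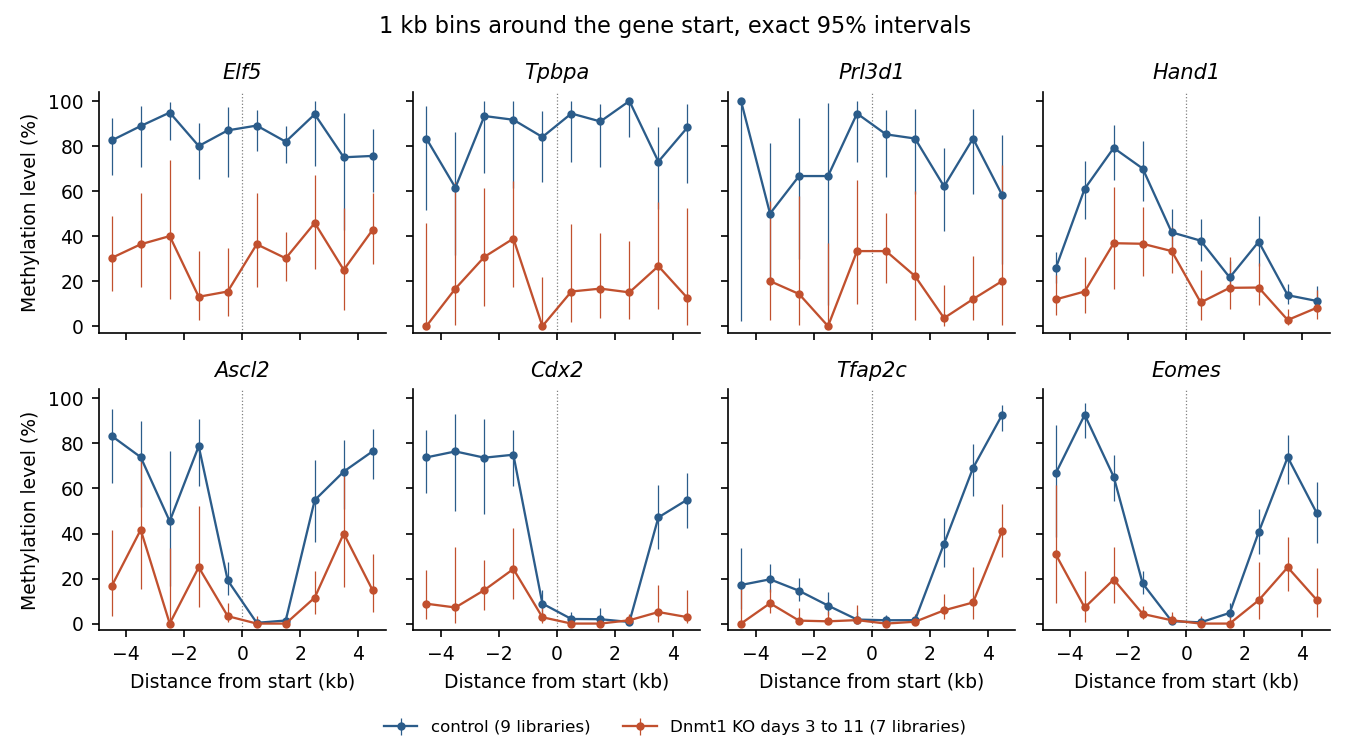
Methylation level (%) in 1 kb bins against distance from the gene start (kb, negative upstream) for the 8 genes, in control (9 libraries pooled) and Dnmt1 KO at days 3 to 11 (7 libraries pooled), with exact 95% intervals. In control Elf5, Tpbpa and Prl3d1 show no dip at the start, Cdx2, Eomes, Tfap2c and Ascl2 show a valley with levels under 3% in control just downstream, and Dnmt1 KO levels are lower along the methylated flanks.

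Over the gene body plus 5 kb upstream, which holds more calls, every member was lower in Dnmt1 KO at days 3 to 11. All 8 passed the test, as did 99.4% of all genes, so the count sets the members apart from no other genes. The differences were -71.8 ± 6.65 points for Tpbpa, -55.1 ± 7.03 for Prl3d1, -49.6 ± 2.47 for Elf5, -21.2 ± 3.56 for Eomes, -18.8 ± 2.98 for Cdx2, -17.7 ± 2.97 for Tfap2c, -16.2 ± 3.94 for Hand1 and -12.8 ± 3.65 for Ascl2, with adjusted p from 1.52e-12 for Elf5 to 0.00185 for Ascl2. The median was -19.97 points over the members and -44.4 over all genes. The 5 members with the smaller differences were those with the lower control levels over this window, 14.4% to 34.2% against 75.9% to 87.9% for Elf5, Tpbpa and Prl3d1.

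For Elf5 the 9 control libraries ranged from 72.4% over a median of 82.2% to 86.4%, on 189 to 286 calls each. The Dnmt1 KO libraries were at 71.5% and 78.6% at day 1, 34.9% and 33.8% at day 3, 32.4% at day 6, 32.3% and 32.7% at day 9, and 23.9% and 26.1% at day 11. All 7 libraries of days 3 to 11 lay at least 37.5 points below the lowest control library of those days.

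For Tpbpa the control libraries of days 3 to 11 ranged from 85.7% over 90.0% to 100%, and the Dnmt1 KO libraries from 4.35% over 16.7% to 41.2%, on 8 to 25 and 9 to 23 calls. Prl3d1 had 57.1%, 72.7% and 88.9% as lowest, median and highest in control and 4.35%, 17.9% and 45.0% in Dnmt1 KO. Both genes had groups that did not overlap, but on few calls per library.

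Cdx2 ranged from 17.8% over 22.3% to 35.7% in control and from 2.82% over 4.35% to 8.33% in Dnmt1 KO at days 3 to 11. Eomes ranged from 26.2% over 35.2% to 38.6% and from 5% over 12.1% to 25%, and Tfap2c from 20% over 25.4% to 55.7% and from 3.23% over 7.82% to 16.7%. The genotypes did not overlap for these 3 genes, by 9.42, 1.17 and 3.33 points. For these and for Elf5, Tpbpa and Prl3d1, the share of all genes separated in this way was not counted, beside 99.4% called lower.

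Hand1 and Ascl2 overlapped between genotypes. Hand1 ranged from 21.6% over 37.1% to 44.2% in control and from 10.5% over 20.5% to 24.5% in Dnmt1 KO, and its window includes part of the gene Gm11003. Ascl2 ranged from 4.17% over 17.6% to 36.4% and from 0% over 4.55% to 10.9%. Over the gene body of Ascl2 alone the difference was -3.50 points and did not pass (adjusted p = 0.149), so the call rested on the 5 kb upstream, where control was at 42.6% (216 calls) and Dnmt1 KO at days 3 to 11 at 10.3% (146 calls).

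The level pooled over days 6 to 11 as a share of the control level is given as a description, and differences between members were not tested. It was 56.5% for Hand1, 40.2% for Eomes, 36.3% for Elf5, 25.7% for Tfap2c, 23.1% for Ascl2, 18.8% for Prl3d1, 17.9% for Cdx2 and 14.6% for Tpbpa. The pooled value hides differences between days, as for Eomes, whose level was 5% at day 6, 22.8% at day 9 and 12.2% at day 11. Over 21863 genes with a control level of at least 10% the median was 30.5%, with quartiles at 24.5% and 35.6%. The level of Elf5 itself in Dnmt1 KO at days 6 to 11, not its share of control, was 29.5% (26.6% to 32.5%, 943 calls). It lay in the upper part of the range of all genes, where 88.1% had a level as low or lower. Late Dnmt1 KO levels (4 libraries, days 9 and 11) were also compared between genes of the same control level, given a control level of at least 50% and 20 calls per library. Of the members only Elf5 met both, since Cdx2, Eomes, Tfap2c, Hand1 and Ascl2 were under that level and Tpbpa and Prl3d1 had a library with fewer calls. Elf5 was 2.28 ± 2.14 points above them (limma, adjusted p = 0.507, unadjusted p = 0.295), against 12.4% of genes called higher and 8.1% called lower.

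The genotypes were first compared at day 1 and Dnmt1 KO then followed over time. Over the gene plus 5 kb, 0 of 8 members differed between genotypes at day 1, with 0 at an unadjusted p under 0.05 and 0 by limma on percentages, beside 5.45% of all genes called lower and 0.0462% higher. That background itself moved with single libraries, from 1179 genes called lower and 10 higher to 169 in either direction without replicate 1 of control, 570 without replicate 1 and 590 without replicate 2 of Dnmt1 KO. Of the day 1 libraries left out in turn, replicate 2 of control changed a call, that of Eomes, to -30.9 points (adjusted p = 0.0253), where the control libraries were at 56.1% and 26.7%. With counting error as the only spread, Cdx2 (-12.6 points, adjusted p = 0.00883) and Eomes (-9.88 points, adjusted p = 0.0117) were called lower and Tfap2c (7.58 points, adjusted p = 0.0455) higher. From day 1 to day 3 within Dnmt1 KO, 4 of 8 members were called lower, beside 84.1% of all genes, and 6 had an unadjusted p under 0.05. Those called were Elf5 with -41.4 ± 4.52 points (adjusted p = 5.72e-07), Cdx2 with -20 ± 4.73 (adjusted p = 0.00191), Eomes with -15.9 ± 5.23 (adjusted p = 0.0118) and Tfap2c with -13.4 ± 6.18 (adjusted p = 0.0486).

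Prl3d1 had -33.7 ± 15.04 points (adjusted p = 0.0561), Hand1 -15.2 ± 6.63 (adjusted p = 0.0533), Tpbpa -30.5 ± 17.5 (adjusted p = 0.124) and Ascl2 -2.42 ± 7.22 (adjusted p = 0.751). Tpbpa and Prl3d1 had only 26 to 46 calls per day there. The call of Tfap2c was lost without any of the 4 libraries (adjusted p from 0.0873 to 0.162) and that of Eomes without replicate 1 of Dnmt1 KO day 1 (-11.7 points, adjusted p = 0.0725) or of day 3 (-15.2 points, adjusted p = 0.0721). Hand1 passed without replicate 1 of day 1 (-20.7 points, adjusted p = 0.0316) and Prl3d1 without replicate 1 of day 3 (-44.9 points, adjusted p = 0.0355). Elf5 and Cdx2 passed whichever library was left out. With limma on percentages 5 of 8 were called, with Tpbpa (adjusted p = 0.0491) and Prl3d1 (adjusted p = 0.0245) in and Tfap2c (adjusted p = 0.0877) out.

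Whether the genotype difference itself changed from day 1 to days 3 to 11 was tested directly over the gene plus 5 kb, and 5 of 8 members passed, all towards a lower level in Dnmt1 KO, beside 86.1% of all genes with that direction and 0.00462% with the other. The change was -43.5 ± 4.83 points for Elf5 (adjusted p = 1.39e-07) and also passed for Tpbpa, Tfap2c, Prl3d1 and Hand1. The Prl3d1 call was lost without any of the 4 day 1 libraries or either day 6 library (adjusted p from 0.0577 to 0.0997), and that of Hand1 without replicate 2 of day 1 of either genotype (adjusted p = 0.0814 for control and 0.111 for Dnmt1 KO). It was -6.21 ± 7.91 points for Cdx2 (adjusted p = 0.454), -11.3 ± 7.23 for Eomes (adjusted p = 0.146) and -11.8 ± 6.27 for Ascl2 (adjusted p = 0.0840). The members' median was -22.4 points against -38.5 over all genes. Control itself was uneven for Cdx2 at day 1, at 20.7% and 48.6%, and without one or the other of these libraries its change was 5.65 or -22.3 points, the latter passing (adjusted p = 0.0193). For Eomes it was -19.6 points without replicate 1 (adjusted p = 0.00525) and 9.78 without replicate 2 of control day 1. Ascl2 passed without replicate 2 of day 11 of either genotype (-15.3 points, adjusted p = 0.0346, for control and -13.7 points, adjusted p = 0.0418, for Dnmt1 KO).

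After day 3 no further loss was called in the members over the gene plus 5 kb, and the starts were not tested for this step. From day 3 to days 9 and 11, 0 of 8 passed, 1 had an unadjusted p under 0.05 (Tpbpa, -26.7 ± 14.1 points, adjusted p = 0.156) and limma on percentages called 0, beside 11.8% of all genes called lower with a median of -7.70 points. That background of 2573 genes fell to 550 without replicate 2 of day 3, to 1539 without replicate 1 of day 3 or of day 11, to 1660 without replicate 1 of day 9 and to 1652 without replicate 2 of day 11. Elf5 changed by -5.61 ± 4.22 points (adjusted p = 0.370). Eomes was at 9.25% (335 calls) at day 3, 5% (140 calls) at day 6, 22.8% (184 calls) at day 9 and 12.2% (279 calls) at day 11, and the difference of 7.16 ± 4.43 points did not pass (adjusted p = 0.298). Both day 9 libraries of Eomes, at 25% and 21.4%, lay above both day 11 libraries, at 12.1% and 12.2%.

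**Figure D4:**
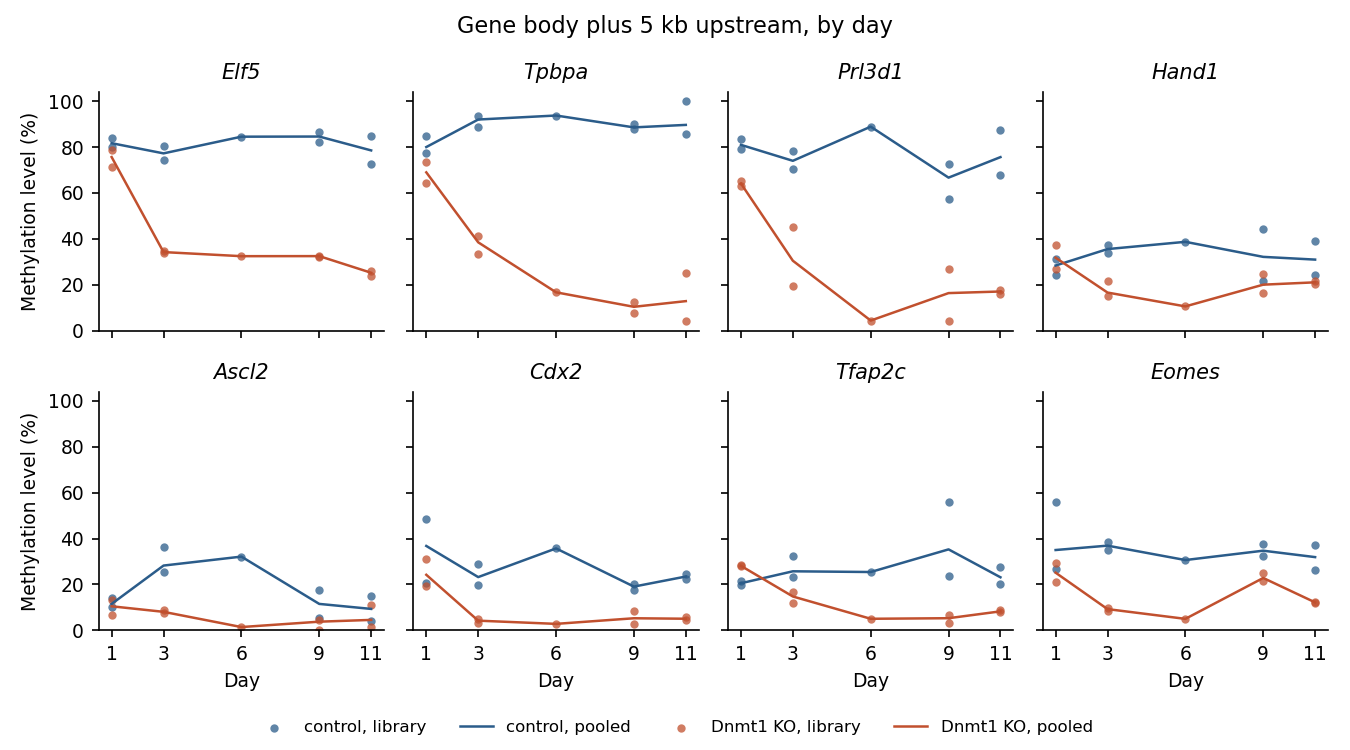
Methylation level (%) over the gene body plus 5 kb upstream by day for the 8 genes, with 1 point per library and lines through the level of pooled calls, in control and Dnmt1 KO. Elf5 falls from 75.6% at day 1 to 34.2% at day 3 in Dnmt1 KO and stays between 25.2% and 32.4% afterwards, while control stays between 77.2% and 84.6%.

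The summed calls of all 8 genes followed the same course in each library. Over the gene plus 5 kb the control libraries of days 3 to 11 ranged from 33.1% over 43.3% to 51.8% and the Dnmt1 KO libraries from 11.5% over 16.96% to 19.2%, without overlap. At day 1 they were at 42.4% and 40.9% in control and 34.1% and 40.9% in Dnmt1 KO. Elf5 gave much of this sum: without it the ranges were 24.0% to 36.0% in control and 4.72% to 13.3% in Dnmt1 KO.

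At the starts the sum was lower and the genotypes overlapped, with 8.47% over 14.8% to 27.2% in control and 2.00% over 7.33% to 10.4% in Dnmt1 KO at days 3 to 11. A library's sum can move with which CpGs its reads covered: the calls at the low start of Tfap2c, for one, numbered 7 to 116 per control library. The part of coverage in these differences between libraries was not tested.

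**Figure D5:**
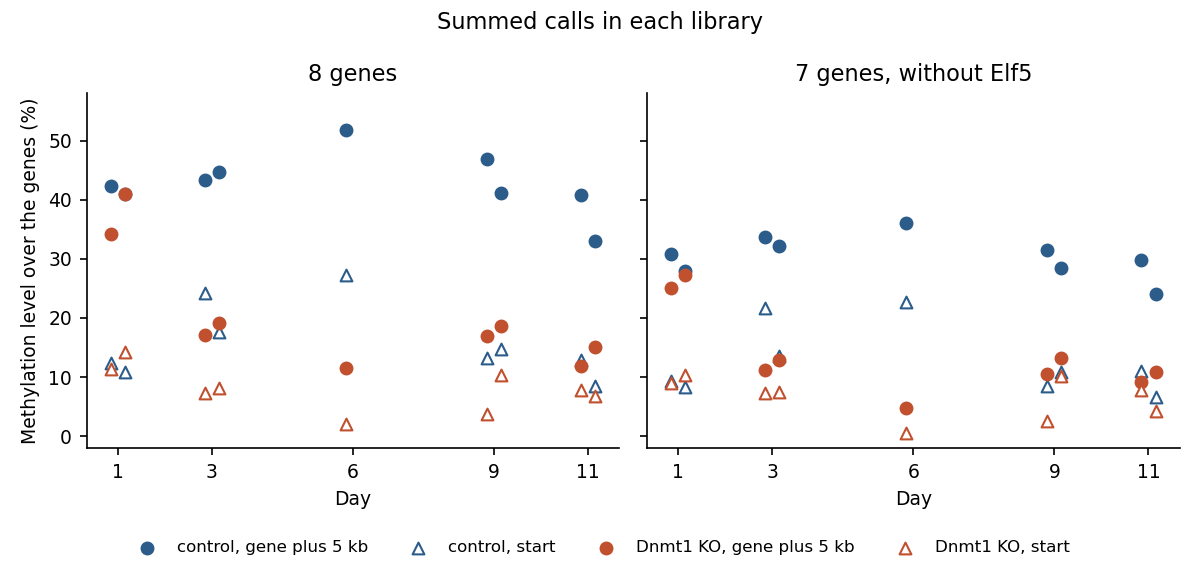
Methylation level (%) over the summed calls of the 8 genes (left) and of the 7 genes without Elf5 (right) in each library by day, for the gene body plus 5 kb (filled circles) and the starts (open triangles), in control and Dnmt1 KO. Over the gene plus 5 kb the Dnmt1 KO libraries of days 3 to 11 lie at 11.5% to 19.2% for the 8 genes, all under the lowest control library at 33.1%.

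A longer list of 27 other trophoblast and placental genes showed the same kinds of start. In control 14 starts were at 50% or more, 10 under 20% and 3 between, with a median of 56.1%, beside 34.2% of all starts at 50% or more and a median of 16.5%. The highest were Ctsj, a placental cathepsin, at 97.7% (43 calls) and Prl8a9, a placental prolactin, at 85.4% (41 calls). The lowest were the AP-2 gene Tfap2a at 1.18% (340 calls) and the start given for the receptor gene Fgfr2, at 0 of 222 calls, which allows a level of up to 1.35%. That start is set by 1 of 29 annotated transcripts, Fgfr2-007, 2904711 bp upstream of the next, so it may not be the promoter of Fgfr2, and the gene window is as uncertain. Without Fgfr2, 14 of 26 starts were at 50% or more, with a median of 63.2%. Other listed genes at 50% or more were the prolactin genes Prl2c2 (82.0%) and Prl3b1 (74.5%), the cathepsin Ctsq (71.7%), the syncytins Synb (79.3%) and Syna (74.1%), the homeobox genes Rhox6 (70.7%) and Rhox9 (70.2%), the syncytiotrophoblast factor Gcm1 (72.1%), Krt7 (80.5%), Esrrb (75%), Plac1 (75%) and Plet1 (56.1%). For all listed genes, Esrrb among them, the window lies at the outermost annotated start. Their other transcript starts were not read singly, so a level may not be that of the promoter in use.

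Upon Dnmt1 KO, 16 of the 26 listed starts tested at days 3 to 11 were called lower and 0 higher, beside 54.4% of all starts called lower. The median difference was -33.4 points over the listed starts and -12.6 points over all starts tested. The difference was -84.5 points for Ctsj (adjusted p = 4.45e-05), -71.5 for Prl8a9 (adjusted p = 0.000764), -65.0 for Prl2c2 (adjusted p = 0.00181) and -62.3 for Synb (adjusted p = 3.08e-05). It was -46.6 points for Gcm1 (adjusted p = 0.000637) and -33.2 for Plet1 (adjusted p = 0.00572). Tfap2a differed by -0.125 points (adjusted p = 0.949) and the uncertain start of Fgfr2 by 1.69 points (adjusted p = 0.342). Over the gene plus 5 kb all 27 were called lower, beside 99.4% of all genes, with a median of -42.8 points, beside -19.97 points for the 8 members and -44.4 points for all genes. Without Fgfr2 all 26 were called lower, with a median of -42.2 points.

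By its start levels over the 10 groups of genotype and day, Elf5 was most like Fabp12, Myo7b and Tsks among 15517 genes with at least 5 calls in every group, at root mean square differences of 6.42, 6.69 and 7.06 points. The Elf5 start had only 8 to 22 calls per group, so these differences lie within counting error and the order of the genes does as well. Fabp12 was at 83.0% (147 calls) in control and 19.5% (133 calls) in Dnmt1 KO at days 3 to 11, Myo7b at 90.6% and 23.3%, and Tsks at 84.4% and 26.9%. Their starts held 36, 18 and 36 CpGs, against 22 for Elf5.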

How the data were processed

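WGBS-seq reads were, per the study's methods, trimmed with Trim Galore, mapped in paired-end mode with Bismark (0.12.3 in the submitters' processing notes, another version in the methods) to NCBIM37 and deduplicated, and CpG calls were extracted. The deposited files held, per cytosine and library, the count of methylated and of unmethylated calls as made by the authors. The deposited percent column was the share of methylated calls and was recomputed here from summed counts. Replicates were not pooled before deposition. The methods set a coverage minimum per CpG for the study's own averages, which was not applied here to the summed calls, and the deposited files list cytosines with 1 call. The share of listed cytosines outside a reference CpG was 0.101% to 0.120%, and the mitochondrial genome, where conversion failure would show, was at 0.228% to 0.467%.

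Calls were summed per gene window and library with Python 3.11.15, NumPy 2.4.6, pandas 2.3.3 and SciPy 1.17.1, and drawn with matplotlib 3.10.9. Differences were Mantel-Haenszel weighted over days, and the stratified score chi-square was divided by a dispersion from replicate libraries, moderated with limma 3.58.1 in R 4.3.3 and never under 1. At starts the value shared over genes was 2.14 with 77.1 prior degrees of freedom, so it outweighed the replicate pairs of a single gene. P-values were two-sided F tests, adjusted by Benjamini-Hochberg over all genes tested and called under 0.05. The change of the genotype difference between days was tested against a t distribution with the moderated degrees of freedom instead of the normal one first planned, which gave too many calls on simulated data. Windows needed 20 calls per genotype over days 3 to 11 and 10 per side for single days. The comparison with genes of the same control level used limma on percentages, 20 calls per library, a control level of at least 50% and bins of 2 points. The tests were run on simulated data, except that of starts at day 1. The simulated spread between replicates was fixed and not fitted to these data, so how the tests behave at the real spread was not shown. Intervals cover counting error only, and a level of 0 allows up to 3 calls of the total.

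Members and lists were chosen with earlier results of these data known. Named besides the 8 members were listed trophoblast genes with the 2 highest and 2 lowest control starts or a control start of at least 50%, the 3 genes nearest to Elf5, genes for the label checks, and genes a sentence needs. Alternatives were the windows, call minimums, dispersion, limma on percentages, cytosines with over 20 calls, the replicate block and leaving out each library. The listed genes without Fgfr2 were added after seeing the data.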

Additional observations from a re-analysis of the deposited data

Results flagged for a closer look

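For 5 genes the difference between Dnmt1 KO and control over the gene body plus 5 kb upstream changed between day 1 and days 3 to 11 by a test of that change itself, beside 86.1% of all genes, so such a change was the common case. Elf5 went from -6.05 to -49.6 points, a change of -43.5 ± 4.83 (adjusted p = 1.39e-07). Tpbpa went from -11.0 to -71.8 points, a change of -60.7 ± 16.5 (adjusted p = 0.00250). Tfap2c went from 7.58 to -17.7 points, a change of -25.3 ± 7.06 (adjusted p = 0.00298). Elf5, Tpbpa and Tfap2c passed whichever library was left out.

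Hand1 went from 3.40 to -16.2 points, a change of -19.6 ± 7.58 (adjusted p = 0.0226), and did not pass without replicate 2 of control day 1 (-16.7, adjusted p = 0.0814) or of Dnmt1 KO day 1 (-14.8, adjusted p = 0.111). Prl3d1 went from -16.8 to -55.1 points, a change of -38.2 ± 16.1 (adjusted p = 0.0340). Prl3d1 did not pass without any of the 4 day 1 libraries (adjusted p from 0.0577 to 0.0997) or without the day 6 library of either genotype (-33.8, adjusted p = 0.0634). No group held 4 or more libraries, so no search for single outlying libraries was made.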

How the results depend on the processing

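Of 319 alternative values other than leaving out a library, 284 were rated as kept, and of 667 that left out a library 614 were. A difference was kept if its direction and side of the threshold held, and a count of genes or members if it moved little. Kept counts were not always equal, as with 4 members in place of 3 at starts over days 3 to 11 with every transcript start joined. With counting error as the only spread (dispersion of 1), 6 members were called at starts over days 3 to 11 and 3 at day 1 over the gene plus 5 kb. This setting called 7 from day 1 to day 3 and 3 from day 3 to days 9 and 11. For the change of the genotype difference it called 7, with Eomes (-11.3 points, adjusted p = 0.00371) and Ascl2 (-11.8 points, adjusted p = 0.00134) in. At day 1 it called 1118 genes at starts and 8485 over the gene plus 5 kb, and 11501 from day 3 to days 9 and 11. At starts over days 3 to 11, 1 kb upstream only gave 5658 genes and 0 members, and a minimum of 50 calls 0 members, in both cases with Elf5, Tpbpa and Prl3d1 left with too few calls to be tested. With 500 bp either side 4310 genes were called, Tpbpa had too few calls to be tested, Elf5, Prl3d1 and Hand1 were called and Ascl2 was at 0.525 points, and with every transcript start joined Eomes was at -0.480 and Tfap2c passed at -4.60 (adjusted p = 0.0402). At day 1 starts, limma called 11 genes and the fit without cytosines over 20 calls 6, against 18.

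Leaving out each library in turn gave 28 to 34 genes at day 1 starts, 169 to 967 over the gene plus 5 kb and 550 to 2003 from day 3 to days 9 and 11, with fewer libraries in each fit. Members called were 0 to 1 at day 1 over the gene plus 5 kb and 3 to 6 for the change of the genotype difference. Values that changed sign, in points, ran from -0.196 to 0.547 for Eomes at starts over days 3 to 11, and at day 1 starts from -2.78 to 3.68 for Cdx2, -1.01 to 8.79 for Eomes, -0.563 to 4.13 for Ascl2 and -25.9 to 30.1 for Hand1. Over the gene plus 5 kb they ran at day 1 from -24.4 to 3.48 for Cdx2, -1.33 to 8.95 for Hand1 and -4.66 to 1.49 for Ascl2, from day 1 to day 3 from -4.95 to 1.202 for Ascl2, and from day 3 to days 9 and 11 from -0.00164 to 1.95 for Cdx2 and -1.04 to 5.50 for Hand1. For the change of the genotype difference they ran from -22.3 to 5.65 for Cdx2 and -19.6 to 9.78 for Eomes. The cause of these changes was not tested.

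The deviations of same-numbered replicates had correlations of -0.0281 to 0.0530. Counting error at this depth lowers such correlations, so whether replicates were paired was not decided. With the replicate number as a block, 11096 starts and 3 members were called over days 3 to 11, 21844 and 8 over the gene plus 5 kb, and at day 1 20 and 0 at starts and 1155 and 0 over the gene plus 5 kb, with Elf5 at -66.9 and -49.5 points over days 3 to 11, and no member's call changed. Depth per library was low at several starts, with 1 call in at least 1 library at Elf5, Cdx2, Tpbpa and Prl3d1 and 0 at Hand1 in replicate 1 of Dnmt1 KO day 3.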
